A study of Mus musculus with 6 samples.

Results

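The antiviral effector genes induced by type I interferon were examined in unstimulated mouse macrophages with and without Gps2. The set was defined by name and chosen with earlier results of these data known. It holds 41 genes of the Mx, Oas, Slfn, Isg and Parp families and others, without the Ifit, Gbp, Ifi200, Irf, Trim and sensor genes. For each gene, the probe set with the highest mean over all arrays was used among those that the platform annotation gives to that gene alone. This gave 35 measured genes of the 18820 tested, each with 1 probe set. Oas1g, Parp9, Dtx3l and Slfn9 shared every listed probe set with other genes, and Ifi44 and Phf11b had no probe set listed under their names, so these 6 were not analysed here.

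The macrophages were grown from the bone marrow of male mice aged 12 to 16 weeks. Marrow cells of wild-type (WT) or Gps2-knockout (GPS2KO) mice were cultured for 7 days in medium with 30% L929 supernatant, which supplies macrophage growth factor, and were left untreated. Each group had 3 arrays. The labels describe a macrophage GPS2 knockout (also MKO) but give no Cre driver, deleted exons or strain, and they do not tie arrays to separate animals, so the p-values reflect spread that may be technical. In the nucleus, GPS2 can silence genes together with the deacetylase HDAC3. Gps2 itself was at log2 signals of 10.94, 10.93 and 11.00 in WT and of 10.29, 10.16 and 10.19 in GPS2KO, which is 59.7% of the WT signal on a linear scale. With the deleted exons not named, probes outside them would check nothing. Array medians lay between 5.565 and 5.598, and all values below are log2 signals unless another scale is named.

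Type I interferons bind a receptor on the cell surface and activate a complex of transcription factors that includes STAT2 and IRF9. That complex binds the interferon-stimulated response element (ISRE) in front of the effector genes and raises their transcription. The proteins block viruses at entry, during copying of their RNA and at release, and macrophages keep many of them at a basal level through low constitutive interferon signalling.

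The promoters of the effector genes were searched for this element first, to show what the genes share in sequence. The windows came from RefSeq (build GRCm38.p6) and ran from 250 bases before to 50 bases after each annotated start site. The ISRE core was searched as GAAA, any 2 bases and GAAA again, on both strands, and matches may overlap each other. It was found in 13 of the 33 effector genes with a window (39.4%), against 3.99% of the 27025 genes and 3.44% of the 32851 windows in the table. The gamma-activated site (GAS), searched as TTC, any 3 bases and GAA, which reads the same on both strands, was in 7 of the 33 (21.2%), against 9.55% of genes and 8.3% of windows. In Bst2 and Ifitm3 a GAS match overlapped an ISRE core match. Of the 11 genes with a window that were lower in GPS2KO by the test below, 5 had an ISRE core, as did 5 of the 17 measured genes with a window that did not pass it. No window was listed for Usp18, Oas2, Mx1, Mx2, Rtp4, Parp14, Ifi27l2a and the unmeasured Parp9. The measured ones among these were all lower except Ifi27l2a, so the windows are missing mostly for lower genes. A match is a description of the letters and not a bound site, and a window without one says nothing about the factor.

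The 5 lower genes with an ISRE core are shown as 60 bases that end before the start site, with the core matches in capitals. Isg15 (chr4:156200856-156200915, minus strand) holds 3 overlapping matches on the gene's strand. Oas3 (chr5:120777700-120777759, minus strand) and Slfn5 (chr11:82951922-82951981, plus strand) each hold 1 on the gene's strand. Rsad2 (chr12:26456538-26456597, minus strand) and Slfn8 (chr11:83020824-83020883, minus strand) each hold 1 on the opposite strand, where the printed letters are the reverse complement.
Isg15: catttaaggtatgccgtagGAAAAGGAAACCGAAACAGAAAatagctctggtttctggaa
Oas3: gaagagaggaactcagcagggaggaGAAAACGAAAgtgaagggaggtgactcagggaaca
Slfn5: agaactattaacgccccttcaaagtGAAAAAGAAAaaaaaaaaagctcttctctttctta
Rsad2: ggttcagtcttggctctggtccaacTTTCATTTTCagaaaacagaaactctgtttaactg
Slfn8: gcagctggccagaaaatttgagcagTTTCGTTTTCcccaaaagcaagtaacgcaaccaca

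For contrast, 3 genes with an ISRE core that did not pass the test are shown in the same way, since the letters occurred in genes of both kinds. Oas1a (chr5:120907526-120907585, minus strand) and Bst2 (chr8:71537565-71537624, minus strand) hold 2 overlapping matches each, and Ddx60 (chr8:61928026-61928085, plus strand) holds 2 apart from each other. The matches in Eif2ak2 and Ifitm3 lie after the start site and are not shown.
Oas1a: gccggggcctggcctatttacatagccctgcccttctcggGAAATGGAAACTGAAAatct
Bst2: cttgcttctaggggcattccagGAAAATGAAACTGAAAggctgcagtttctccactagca
Ddx60: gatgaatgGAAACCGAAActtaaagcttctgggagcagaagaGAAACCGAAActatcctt

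In GPS2KO macrophages, 17 of the 35 effector genes were lower than in WT, none was higher and 18 did not pass the threshold (limma, Benjamini-Hochberg adjusted p under 0.05 over all tested genes). Over all tested genes, 3.83% were lower and 2.9% were higher by the same rule. At an unadjusted p under 0.05 there were 24 lower and 0 higher effector genes, against 11.9% and 8.88% of all tested genes. The median change was -0.27, or 83.1% of the WT signal, against a median of -0.01 over all tested genes. The largest falls were those of Usp18, which removes ISG15 from proteins, to 47.2% of WT, and Rsad2, which encodes the antiviral enzyme viperin, to 48.9%. The falls of 6 genes were at least 1.5-fold, a size reached by 0.404% of all tested genes, and those of 2 were at least 2-fold, against 0.0797%.

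**Figure D1:**
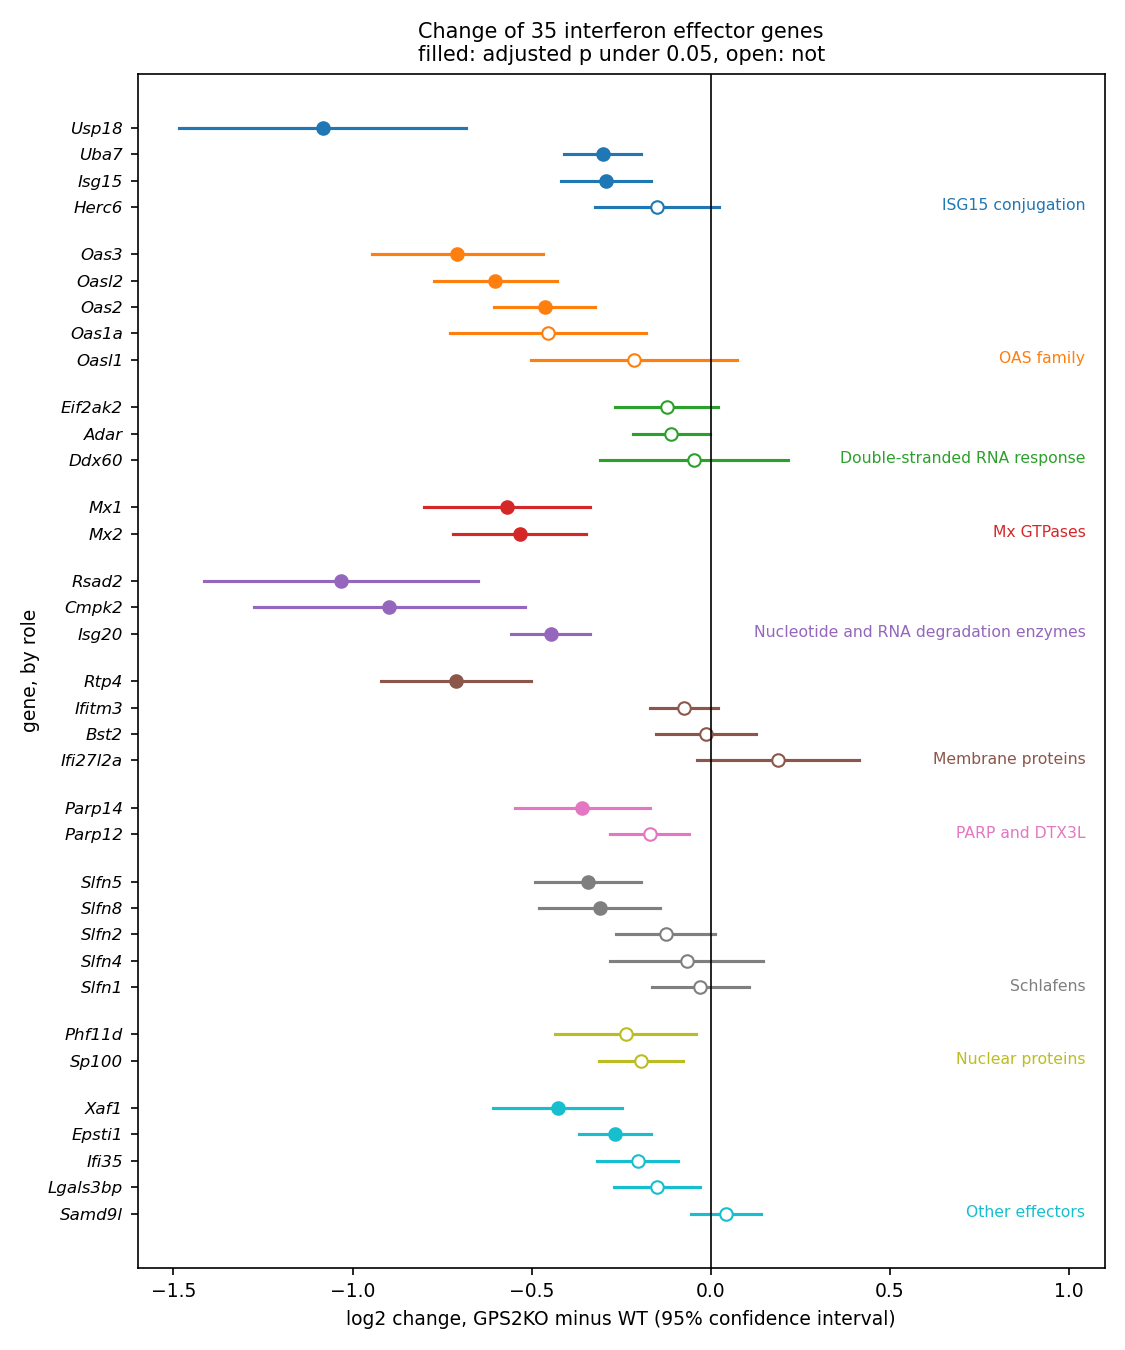
Log2 change (GPS2KO minus WT) of the 35 measured effector genes by role, with 95% confidence intervals from limma and n = 3 arrays per group; filled points passed the adjusted threshold of 0.05 and open points did not. The changes run from -1.08 for Usp18 to 0.19 for Ifi27l2a, and the 17 filled points all lie below 0.

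The direction was shared by most effector genes, but the sizes were not. The means of 33 of 35 genes were lower in GPS2KO, against 53.5% of all tested genes. For 25 of 35 genes the arrays of both groups separated completely, and in each of these GPS2KO was lower, against 15.2% of all tested genes that separated in that direction. All 17 genes that passed were among these 25. The other 8 were Herc6, Oas1a, Ifitm3, Parp12, Slfn2, Sp100, Ifi35 and Lgals3bp.

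The calls varied with the array left out. Of the 17 lower genes, 10 kept their call whichever array was left out, and 7 lost it with at least 1 array left out (Isg15, Mx1, Cmpk2, Parp14, Slfn5, Slfn8 and Xaf1). The number of lower effector genes was 11 without WT replicate 1, 11 without WT replicate 3, 10 without GPS2KO replicate 1 and 11 without GPS2KO replicate 3. It was 16 without WT replicate 2 and 20 without GPS2KO replicate 2. With each array centred on its median over the tested genes, 568 genes of all those tested were lower and 659 higher, against 720 and 545 otherwise, while 16 effector genes were lower and 0 higher.

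The genes of ISG15 conjugation were examined first. ISG15 is a ubiquitin-like protein that UBA7 activates, HERC6 attaches to target proteins in the mouse and USP18 removes. Of the 4 genes, 3 fell. Usp18 was at 9.32, 9.001 and 9.67 in WT and at 8.10, 8.51 and 8.12 in GPS2KO. Every WT array lay above every GPS2KO array, by at least 0.49 between the nearest pair. The fall of Usp18 was 1.08 on the log2 scale (SE 0.173, n = 3 per group, adjusted p = 0.0103), and it held the 10th place among the falls of all tested genes. Besides cleaving ISG15, USP18 restrains the interferon receptor itself.

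Uba7, the activating enzyme, fell from 7.95 ± 0.06 to 7.65 ± 0.04 (SD, n = 3; 81.1% of WT, adjusted p = 0.00901). Isg15 itself was read near the floor of the arrays, at 5.11, 5.08 and 5.21 in WT and 4.82, 4.92 and 4.79 in GPS2KO. The limit below which a gene was counted as dim was 5.49, the 40th percentile of the tested genes' means, and background left in dim signals compresses their changes. Isg15 fell by 0.29 (SE 0.0539, adjusted p = 0.0183). Leaving out replicate 1 or 3 of either group ended this call (adjusted p from 0.0539 to 0.0698). Herc6 differed by -0.15 (adjusted p = 0.317), with GPS2KO replicate 3 at 8.03 and the other two GPS2KO arrays at 8.27, just under the lowest WT array at 8.28. Without GPS2KO replicate 3 the change of Herc6 was -0.07.

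The 2'-5'-oligoadenylate synthetases (OAS) sense double-stranded RNA and make a messenger that activates RNase L, while Oasl1 and Oasl2 are OAS-like proteins. Of the 5 measured genes, 3 fell, and the median change of the family was -0.46. Oas3 was at 7.93, 8.07 and 8.26 in WT and at 7.46, 7.49 and 7.19 in GPS2KO. It fell by 0.71 (SE 0.103, adjusted p = 0.00702), to 61.2% of WT. Oas3 thus had the largest fall of the family, and its groups did not overlap.

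Oasl2 was at 10.49, 10.50 and 10.61 in WT and at 9.99, 10.04 and 9.78 in GPS2KO. Its fall was 0.60 (SE 0.0739, adjusted p = 0.0033). Oas2, the neighbour of Oas3 in the RefSeq gene order, fell from 8.80 ± 0.09 to 8.34 ± 0.07 (72.5% of WT, adjusted p = 0.0044). The calls of all 3 genes held whichever array was left out.

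Oas1a and Oasl1 did not pass. Oas1a was at 9.10, 8.61 and 8.77 in WT and 8.40, 8.27 and 8.45 in GPS2KO. Its change of -0.45 was close to that of Oas2, but the WT arrays spread over 0.49, with WT replicate 1 far above the other two (SE 0.117, adjusted p = 0.0648). Without WT replicate 1 the change was -0.32 and did not pass (adjusted p = 0.0719). Without WT replicate 2 it was -0.56 and passed (adjusted p = 0.0384). With any other array left out, Oas1a did not pass (adjusted p up to 0.188). Oas1a also passed when a variance trend was fitted (0.00788), dim genes were left out (0.0363) or the replicate number was fitted as a block (0.0441). Oas1a belongs to a family of near-identical neighbouring genes, so its probes may read other copies. Oasl1, which restrains translation of Irf7, differed by -0.21 (adjusted p = 0.385), and the groups overlapped because WT replicate 2, at 7.18, lay below GPS2KO replicate 2, at 7.37. The change of Oasl1 was -0.35 without WT replicate 2 and -0.10 without WT replicate 3. Oasl2 and Oasl1 are direct neighbours, and only the first passed. The difference between them was not tested.

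The enzymes that act on nucleotides and RNA fell furthest as a group, with a median of -0.90 and falls in 3 of 3. Viperin (Rsad2) turns CTP into a chain terminator of viral RNA synthesis, Cmpk2 encodes a nucleotide kinase of mitochondria, and Isg20 an exonuclease. Rsad2 was at 8.85, 8.48 and 8.96 in WT and at 7.67, 8.04 and 7.48 in GPS2KO. Cmpk2, its direct neighbour in the genome, was at 8.26, 7.84 and 8.33 in WT and at 7.15, 7.55 and 7.03 in GPS2KO. For both genes WT replicate 2 was the lowest WT array and GPS2KO replicate 2 the highest GPS2KO array. Counted separately over the 35 effector genes, the first held for 24 and the second for 27.

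Rsad2 fell by 1.03 (SE 0.164, adjusted p = 0.0103), the 14th largest fall of all tested genes. Cmpk2 fell by 0.90 (SE 0.163, adjusted p = 0.0173), to 53.7% of WT. The Rsad2 call held whichever array was left out, whereas that of Cmpk2 was lost when replicate 1 or 3 of either group was left out (adjusted p from 0.0578 to 0.0681). Isg20 was nearly equal on the 3 GPS2KO arrays, at 8.45, 8.37 and 8.51 in WT and 8.01, 7.99 and 7.99 in GPS2KO. Its fall of 0.45 (SE 0.0468) had the smallest adjusted p of the set, 0.00168.

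Both Mx genes, which encode dynamin-like antiviral GTPases, were lower and both were dim. Mx1 was at 5.79, 5.42 and 5.70 in WT and at 5.01, 5.20 and 5.003 in GPS2KO. Mx2 was at 5.42, 5.25 and 5.41 in WT and at 4.86, 4.67 and 4.94 in GPS2KO. Neither gene's groups overlapped. The falls were 0.57 for Mx1 (SE 0.0993, adjusted p = 0.015) and 0.53 for Mx2 (SE 0.0796, adjusted p = 0.00787). The Mx1 call was lost with WT replicate 3 left out (adjusted p = 0.0627), as it was with GPS2KO replicate 1 (0.0574) or 3 (0.0576) left out. Many laboratory strains carry a defective Mx1 gene, and the labels name no strain.

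Of the effectors that respond to double-stranded RNA, those outside the OAS family did not pass. Eif2ak2 encodes PKR, the kinase that stops translation, Adar an RNA editor that marks self RNA, and Ddx60 a helicase. None of the 3 genes passed in limma. At an unadjusted p under 0.05, 1 gene was lower (Adar) and 0 were higher. Eif2ak2 differed by -0.12 (95% confidence interval -0.27 to 0.02), Adar by -0.11 (-0.22 to -0.002) and Ddx60 by -0.05 (-0.31 to 0.22). A fall the size of that of Oas2 lies outside all 3 intervals. The sign of Ddx60 turned without GPS2KO replicate 3, at 0.07.

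The 4 proteins of membranes split. Rtp4, a membrane protein that helps receptors reach the surface and restricts flaviviruses, was at 9.35, 9.22 and 9.55 in WT and 8.57, 8.79 and 8.63 in GPS2KO. It fell by 0.71 (SE 0.0902, adjusted p = 0.0038), to 61.1% of WT, and kept its call with any 1 array left out. The other 3 genes did not pass.

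Bst2 encodes tetherin, which holds budding virus on the cell, and was at 10.19, 10.05 and 10.28 in WT and 10.17, 10.17 and 10.15 in GPS2KO. The GPS2KO arrays lay within the WT range. The change of Bst2 was -0.01 (95% confidence interval -0.15 to 0.13), and its sign turned after median centring (0.01) and without WT replicate 3 (0.04). Ifitm3, which blocks fusion of viruses in endosomes, differed by -0.08 (adjusted p = 0.363). Ifi27l2a, a small interferon-induced membrane protein, was at 11.12, 11.11 and 11.39 in WT and 11.56, 11.33 and 11.29 in GPS2KO. It was 1 of the 2 measured effector genes with a higher mean in GPS2KO, by 0.19 (95% confidence interval -0.04 to 0.41, adjusted p = 0.332), and its groups overlapped. The change of Ifi27l2a was 0.10 without GPS2KO replicate 1 and 0.28 without WT replicate 3, the lowest and highest with 1 array left out.

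PARP14 and PARP12 attach ADP-ribose to proteins, and 1 of the 2 measured genes fell. Parp14 was at 9.45, 9.47 and 9.47 in WT and at 8.97, 9.30 and 9.05 in GPS2KO, so that the WT arrays were nearly equal and GPS2KO replicate 2 stood nearer to them. It fell by 0.36 (SE 0.0809, adjusted p = 0.0417). This call ended without any array but GPS2KO replicate 2, at adjusted p from 0.102 to 0.127. Parp12 differed by -0.17 (adjusted p = 0.0802). It passed when a variance trend was fitted (0.00776) and when dim genes were left out (0.0359).

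The Schlafen genes restrain cell growth and, in part, viral translation. The 6 named here lie side by side in the RefSeq gene order as Slfn5, Slfn9, Slfn8, Slfn2, Slfn1 and Slfn4. Of the 5 measured, 2 fell. Slfn5 was at 9.02, 8.92 and 9.14 in WT and 8.66, 8.75 and 8.64 in GPS2KO (-0.34, SE 0.0639, adjusted p = 0.0195). Slfn8 was at 9.05, 9.04 and 9.12 in WT and 8.62, 8.91 and 8.75 in GPS2KO (-0.31, SE 0.072, adjusted p = 0.0461). Slfn9, which lies between them in this order, was not analysed.

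Slfn5 lost its call with WT replicate 1 left out (adjusted p = 0.0635), and likewise with GPS2KO replicate 1 (0.0696) or 3 (0.073) left out. That of Slfn8 ended without any array but GPS2KO replicate 2 (0.0964 to 0.137). It also ended after quantile normalization (0.0511), after median centring (0.0616) and with the replicate number fitted as a block (0.0665). Slfn8 and Slfn9 are close paralogs, so the probes of Slfn8 may read both. Slfn2, needed for T cell quiescence, was at 9.79 ± 0.11 in WT and differed by -0.13 (adjusted p = 0.287). Slfn4 and Slfn1 were dim, at WT means of 5.06 and 4.35, and differed by -0.07 and -0.03. The sign of Slfn1 turned without WT replicate 3 (0.0022) and without GPS2KO replicate 2 (0.0071).

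Of the remaining effectors, Xaf1 and Epsti1 fell. Xaf1, which opposes the inhibitor of apoptosis XIAP, was at 7.48, 7.40 and 7.61 in WT and at 7.09, 7.19 and 6.94 in GPS2KO. It fell by 0.43 (SE 0.0776, adjusted p = 0.0173), a call lost when WT replicate 1 (0.0568) or 3 (0.0589) was left out, and also without GPS2KO replicate 1 (0.0549). Epsti1, an interferon-induced gene of macrophage activation, was at 8.83, 8.91 and 8.91 in WT and at 8.57, 8.61 and 8.65 in GPS2KO. Its fall of 0.27 (SE 0.0431, adjusted p = 0.0108) was smaller than that of Xaf1, but the arrays of a group lay closer together and the call held with any 1 array left out.

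The nuclear proteins Sp100, of nuclear bodies that silence viral DNA, and Phf11d did not pass. Sp100 differed by -0.20 (adjusted p = 0.0646) and Phf11d by -0.24 (adjusted p = 0.162), and 0 of these 2 passed in limma although both had an unadjusted p under 0.05. Ifi35, which forms complexes with the interferon-induced protein NMI, lay at the threshold with -0.20 (adjusted p = 0.0503). Without GPS2KO replicate 2 all 3 passed, at adjusted p = 0.0434, 0.0447 and 0.0466 for Sp100, Phf11d and Ifi35, and Sp100 and Ifi35 also passed when a variance trend was fitted (0.00929 and 0.0103) or dim genes were left out (0.0291 and 0.0217). Lgals3bp, a secreted glycoprotein at 12.64 ± 0.03 in WT, differed by -0.15 (adjusted p = 0.144) and passed with a variance trend (0.0132). Samd9l, which restricts poxviruses, differed by 0.04 (95% confidence interval -0.05 to 0.14). It was the other gene with a higher mean in GPS2KO.

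**Figure D2:**
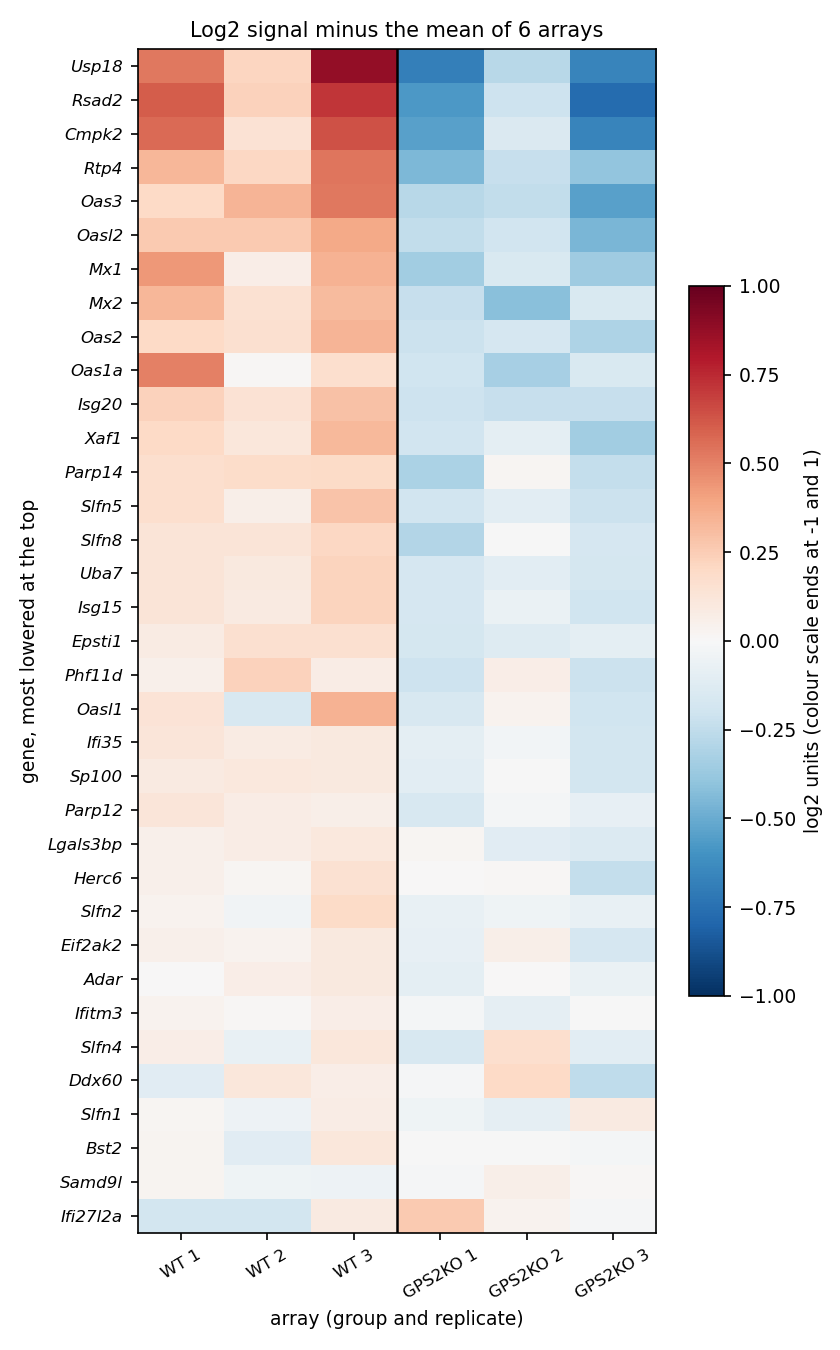
Log2 signal of the 35 effector genes (rows, most lowered at the top) on the 6 arrays (columns), minus each gene's mean over the arrays; red is higher and blue lower, and the colour scale ends at -1 and 1 log2 units. The upper rows are red on the WT arrays and blue on the GPS2KO arrays, with WT replicate 2 and GPS2KO replicate 2 paler for Usp18, Rsad2 and Cmpk2.

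Falls were seen over much of the range of array signal. Among the 35 genes, the Pearson correlation of the WT signal with the log2 change was 0.10, a description over genes that share the same 6 arrays. Signals of different probe sets do not rank the genes by transcript level. Lgals3bp and Ifitm3, near the upper end, differed by less than 0.2, whereas Oasl2, at a WT signal of 10.54, fell by 0.60. In the dim range, Mx1 and Mx2 fell and Slfn1 and Slfn4 did not pass. Of all effector genes, 7 were among the 100 largest falls of the tested genes (Usp18, Rsad2, Cmpk2, Rtp4, Oas3, Oasl2 and Mx1).

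**Figure D3:**
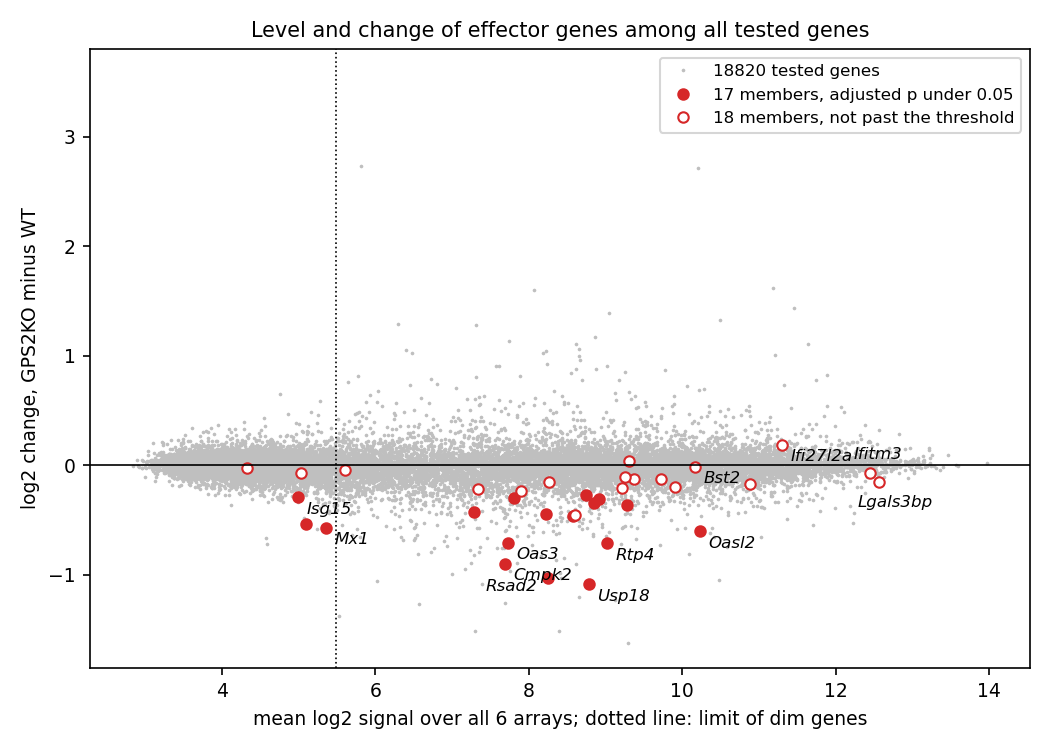
Mean log2 signal over all 6 arrays (horizontal) and log2 change, GPS2KO minus WT (vertical), of the 18820 tested genes in grey and the 35 effector genes in red, filled where the adjusted p was under 0.05; the dotted line marks the dim limit of 5.49. The filled points spread from Isg15 at 4.99 to Oasl2 at 10.24, and 3 of them (Isg15, Mx1 and Mx2) lie left of the line.

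The effector genes also varied together between arrays of 1 group. Each value was set against the mean of its own group, so that the difference between WT and GPS2KO was removed. In WT, replicate 3 was the highest of the group for 25 of 35 genes and replicate 2 the lowest for 24. In GPS2KO, replicate 2 was the highest for 27 and replicate 3 the lowest for 20. The median deviation of the effector genes ran from -0.06 on WT replicate 2 to 0.07 on WT replicate 3, and from -0.06 on GPS2KO replicate 3 to 0.08 on GPS2KO replicate 2. Over all tested genes the median deviations lay between -0.01 and 0.005. Most of the effector genes thus moved the same way on these arrays. Their part in the falls was not tested, and the number of lower genes without each array is given above.

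**Figure D4:**
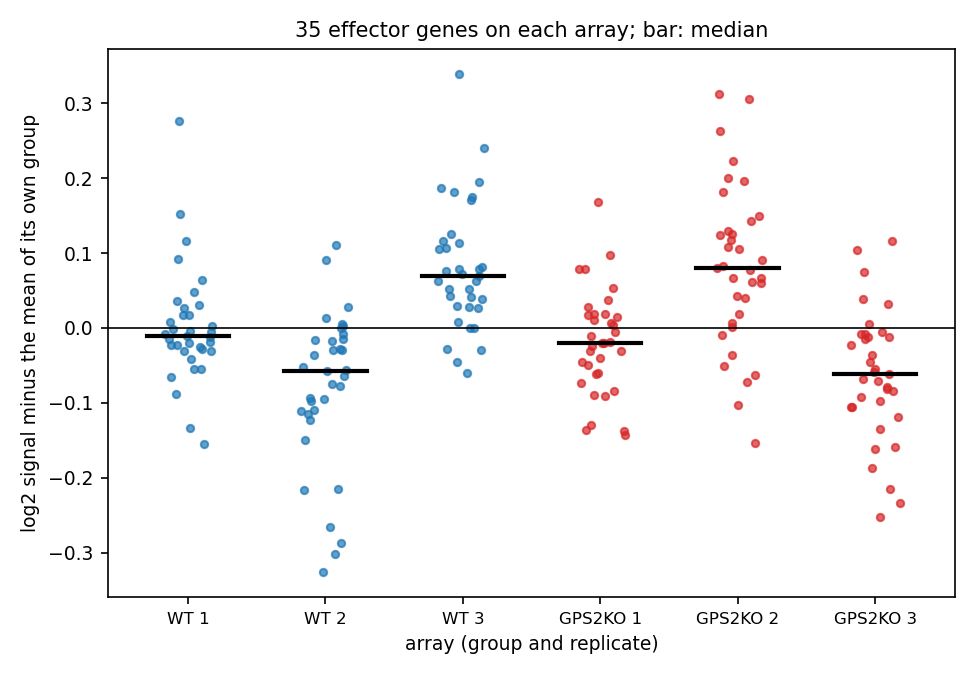
Log2 signal of each of the 35 effector genes minus the mean of its own group (points, spread sideways at random) on the 6 arrays, with the median as a bar. The medians of WT replicate 3 (0.07) and GPS2KO replicate 2 (0.08) lie above 0, and those of WT replicate 2 and GPS2KO replicate 3 (both -0.06) lie below it.

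The other genes of the pathway were read from a list of 35, of which 31 were measured. This list, too, was chosen with earlier results of these data known. In GPS2KO, 12 of the 31 were lower and none was higher (limma, against 3.83% and 2.9% of all tested genes), and their median change was -0.07. At an unadjusted p under 0.05 there were 15 lower and 0 higher, against 11.9% and 8.88%. Of the 5 measured interferon genes, none passed, and at an unadjusted p under 0.05 there were also 0 in either direction. All 5 were dim. Ifnb1, which encodes interferon beta, was at 4.29, 4.20 and 4.30 in WT and 4.20, 4.32 and 4.19 in GPS2KO, and Ifne and Ifnk differed by 0.10 and 0.04 (adjusted p = 0.643 and 0.647). Levels this low do not show whether interferon transcripts differed.

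The receptor chains did not pass. Ifnar1 differed by -0.07 (95% confidence interval -0.15 to 0.01) and Ifnar2 by -0.06 (-0.14 to 0.03). Among the signal transducers, Irf9 fell by 0.21 (adjusted p = 0.0165) and Stat2 differed by -0.21 (adjusted p = 0.064). Irf9 lost its call when WT replicate 1 was left out and when any GPS2KO array was (adjusted p from 0.053 to 0.0695), and Stat2 passed without GPS2KO replicate 2 (0.0402), when a variance trend was fitted (0.0144) or when dim genes were left out (0.03). The regulatory factors Irf7 and Irf1, which drive transcription of interferons and effectors, fell by 0.98 and 0.33 (adjusted p = 0.00149 and 0.00953). With the mean of its probe sets, Irf1 fell by 0.20 (adjusted p = 0.0184).

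Of the 9 sensors and adaptors, 5 fell. These were Zbp1 (-0.69), the kinase Ikbke (-0.38), the RNA sensors Ifih1 (-0.34) and Ddx58 (-0.33) and their relative Dhx58 (-0.31), with adjusted p from 0.0011 to 0.0137. The Dhx58 call ended without WT replicate 1 (0.0534) or WT replicate 3 (0.0537). Of the 4 feedback inhibitors, the phosphatase Ptpn6 fell by 0.24 (adjusted p = 0.0102). The 3 Ifit genes, whose proteins bind viral RNA, all fell, with log2 changes of -1.52 for Ifit3, -1.51 for Ifit1 and -0.995 for Ifit2 (adjusted p = 0.00664, 0.0161 and 0.00324). Those of Ifit3 and Ifit1 were larger than that of any effector gene measured here. Ifit1 lost its call with replicate 1 or 3 of WT or replicate 3 of GPS2KO left out (0.0604 to 0.0646).

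**Figure D5:**
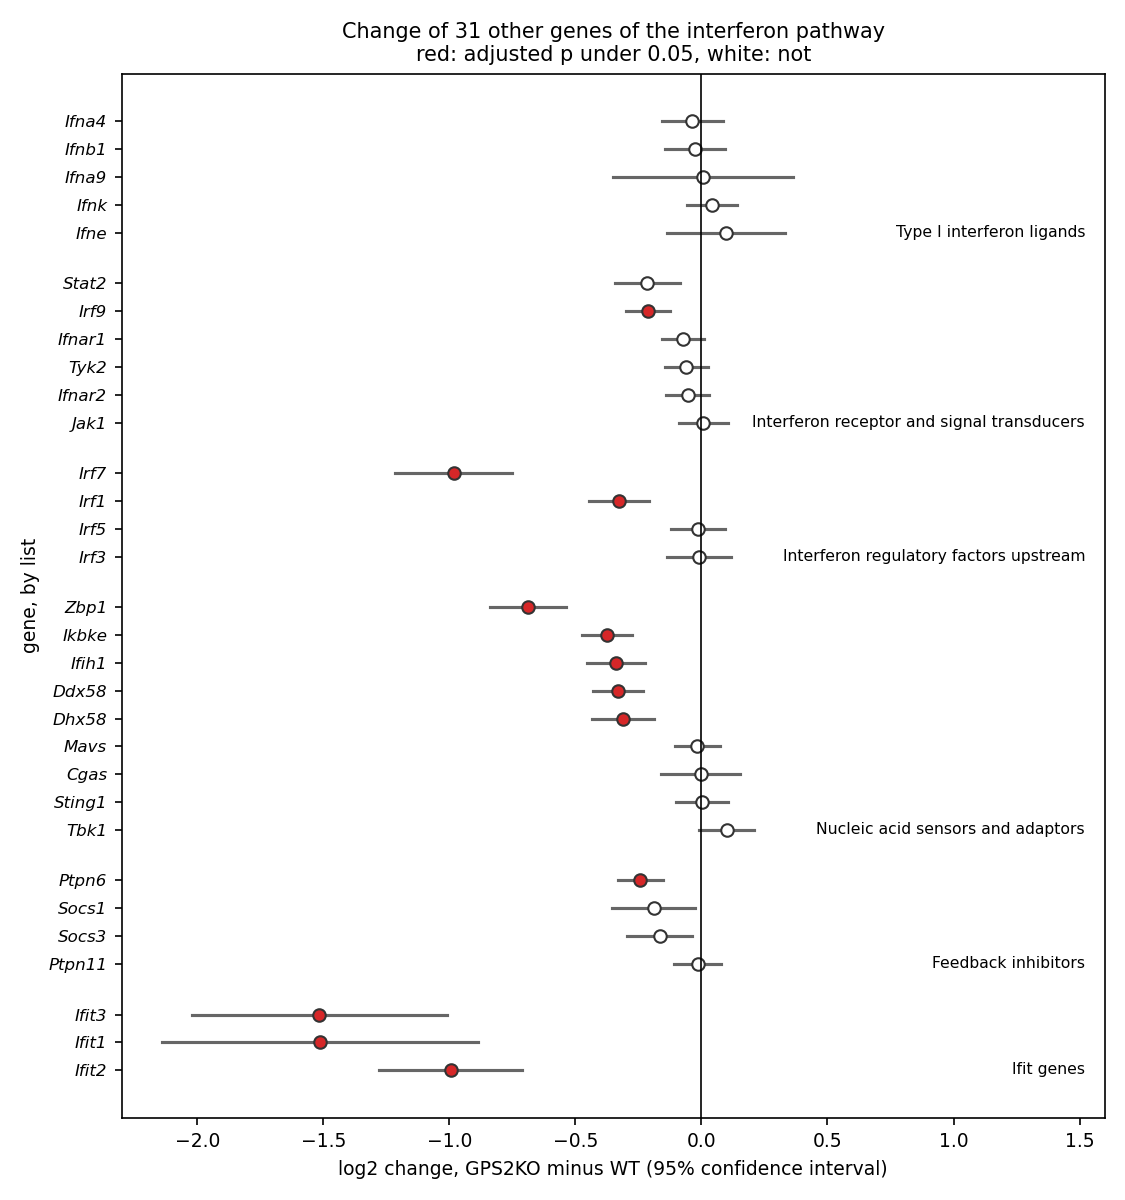
Log2 change (GPS2KO minus WT) of 31 other genes of the interferon pathway by list, with 95% confidence intervals from limma and n = 3 arrays per group; red points passed the adjusted threshold of 0.05 and white points did not. The 12 red points lie below 0, from -0.21 for Irf9 to -1.52 for Ifit3, and the interferon genes lie within 0.10 of 0.

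The cultures were checked against markers of macrophages and of other cells. All 8 macrophage markers were above the dim limit, Lyz2 and Cd68 among them. Of these, 2 rose (Mertk by 0.24 and Itgam by 0.19) and none fell (limma; 3 higher and 0 lower at an unadjusted p under 0.05), and their summed linear signal was 41430 to 42700 in WT and 43220 to 43370 in GPS2KO. Plasmacytoid dendritic cells are potent producers of type I interferon and carry Bst2. Of their 6 measured markers 5 were dim, none passed in limma (1 lower and 0 higher at an unadjusted p under 0.05), and their summed signal was 191 to 202 in WT and 186 to 198 in GPS2KO. The fibroblast markers went both ways. Of 7 measured, 2 fell (Col1a1 by 0.20 and Pdgfrb by 0.28) and 1 rose (Dcn by 0.30), with 4 lower and 1 higher at an unadjusted p under 0.05. Col1a2 differed by -0.15 (adjusted p = 0.0671) and Col3a1 by -0.12 (adjusted p = 0.194), and the groups of neither overlapped. Pdgfra differed by 0.31 (adjusted p = 0.336) and Lum, which was dim, by 0.15 (adjusted p = 0.314), with overlapping groups. The summed signal of the fibroblast markers was 9920 to 10510 in WT and 8987 to 9107 in GPS2KO. Most of it came from bright probe sets such as that of Col1a1. Of these calls, that of Itgam was lost with any 1 array left out (adjusted p up to 0.1), that of Col1a1 with each array except WT replicate 1 left out in turn (at most 0.0796) and that of Dcn without replicate 1 or 2 of either group (up to 0.115). The part of the fibroblast signal in the falls was not tested.

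For the other cell types, most markers were dim. Of the 4 measured B cell markers 3 were dim and 1, Cd79b, fell, with a summed signal of 199.7 to 213 in WT and 164 to 175 in GPS2KO, and its part was not tested. Of 6 neutrophil markers 4 were dim and 1, Ngp, rose (240.3 to 258 and 254 to 294), a call lost without WT replicate 2 or 3 or GPS2KO replicate 1 or 2 (adjusted p up to 0.0617). All 6 T and NK cell markers were dim (140.5 to 142.5 and 136 to 138), as were 4 of 6 markers of conventional dendritic cells (199 to 209 and 192 to 202). In bulk RNA, fewer cells of a type and less RNA per cell cannot be told apart.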

How the data were processed

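RNA of 6 macrophage cultures, 3 WT and 3 GPS2KO by their titles, was measured on 1 Affymetrix array each. The authors deposited 1 log2 intensity per probe set and array, made with RMA in the R package oligo, per the submitters' processing notes; versions and the array annotation package are not given in the sources used here. RMA corrects background, quantile-normalizes the arrays and summarises probes by median polish, which makes arrays more alike. The values ran from 2.42 to 13.99, which fits a log2 scale. The precision is limited by the number of arrays, which carry no read depth.

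Of 35556 probe sets, 21218 had 1 symbol in the platform annotation from GEO (possibly outdated), 1881 had several and 12457 were not listed. The probe set of highest mean stood for each of 18820 genes, with no filter on dim genes. All 35 measured effector genes matched RefSeq (GRCm38.p6) by gene number. Group was the only term in limma 3.58.1 (R 4.3.3, lmFit and eBayes), p-values were 2-sided and adjusted over all tested genes by Benjamini-Hochberg, and the threshold was 0.05. The calculation was tested on simulated data. Promoter windows came from RefSeq and matched 33 of the 41 genes by symbol; no build is named for the array, so only the gene order was taken from RefSeq. Protein sequences were not used here.

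Alternatives were a further quantile normalization, median centring, a variance trend, robust eBayes, leaving out dim genes, the mean of a gene's probe sets, the replicate number as a block and leaving out each array. The effector genes, the pathway and marker lists and the tests were chosen with earlier results of these data known. The rule named all 41 effector genes, Gps2, each pathway gene past the threshold, the 2 of smallest p in a list with none, and up to 2 markers a list. Ifnb1, Ifnar1, Ifnar2, Stat2, Mertk, Itgam, Col1a2, Col3a1, Lum, Pdgfra, Pdgfrb, Dcn, Cd79b and Ngp were named after their values were seen.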

Additional observations from a re-analysis of the deposited data

How the results depend on the processing

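The median change of the effector genes stayed negative in all alternatives run, between -0.32 and -0.24. Lower means in each alternative that fitted them were seen for 30 of the 35 genes. The exceptions were Ddx60, Bst2 and Slfn1, whose signs turned, and Ifi27l2a and Samd9l, whose means were higher. The 5 dim genes were not fitted when dim genes were left out. Of the 30 genes fitted there, 26 had a lower mean in every alternative. The number of lower effector genes was 16 to 22 under the alternatives on all arrays other than the block (16 after quantile normalization or centring on the median, 22 when a variance trend was fitted) and 10 to 20 with 1 array left out. No effector gene was higher in any of them. Over all tested genes, 2174 passed when a variance trend was fitted and 1962 when dim genes were left out, against 1265, and 749 to 842 passed with 1 array left out. Fewer genes or arrays entered the fit in the latter 2 cases. The cause of the different counts was not tested in any of these cases. With 1 array left out, the change of none of the 17 lower effector genes moved by over 1.5 times, but those of 11 of the 18 others did. Changes close to 0 that did not pass turned sign. Centring on the median gave 0.0101 for Bst2. With 1 array left out, Bst2 lay between -0.0749 and 0.0396, Slfn1 between -0.0808 and 0.0071, Ddx60 between -0.1581 and 0.0701 and Ifne between -0.0044 and 0.2189.

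Samples with the same replicate number showed little shared deviation: the correlations of their deviations over all tested genes were 0.0035, 0.0258 and -0.006. The labels state no pairing, and these correlations over normalized arrays cannot settle whether the samples were paired. With the replicate block, 12 effector genes, 9 other pathway genes and 862 genes in all passed. Isg15, Cmpk2, Parp14, Slfn5, Slfn8 and Xaf1 lost their calls there, and Oas1a gained one. Irf9, Dhx58 and Ifit1 of the pathway lists and the markers Itgam, Col1a1 and Dcn also lost theirs. Signals near background limit what Isg15, Mx1, Mx2, Slfn1, Slfn4 and the interferon genes can show.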
